A study of Mus musculus with 16 samples.

Results

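The genes described are 9 transcription factors that set hepatocyte identity, Hnf4a, Foxa1, Foxa2, Foxa3, Cebpa, Cebpb, Onecut1, Prox1 and Nr5a2, measured in mouse liver on Affymetrix expression arrays. They were taken by symbol: every probe set annotated to one of the symbols alone was a candidate, and the candidate with the highest mean over the 16 arrays stood for its gene. The 9 genes have 19 such probe sets, of which 1 of Prox1 and 1 of Nr5a2 did not pass the filter on low values, a signal above the array median on at least 4 of 16 arrays. They are 9 of the 18193 genes with a probe set of their own, and all 9 were among the 13577 genes that passed this filter. The arrays cover 4 arms at days 0, 2, 7 and 14 after partial hepatectomy, which removes some lobes and lets the remnant regrow. Each arm has 1 array per day. MET_KO_canertinib mice had lost exon 16 of Met, the receptor of hepatocyte growth factor, by a tamoxifen-inducible deletion. They also ate canertinib, an inhibitor of the EGFR family, in a diet meant to give 80 mg/kg. MET_FLOX_canertinib mice ate the same diet with Met undeleted, MET_KO mice had the deletion without the drug, and MET_FLOX mice had neither. All 4 arms carry the strain label 129SV/C57BL/6 and the genotype label Metff/ff:ERCre+/+, so floxed Met and the Cre transgene are shared by the controls. The promoter that drives Cre is not named. The labels call the block systemic, so it was not limited to hepatocytes. They give neither age nor sex, and do not say whether an array holds 1 animal or a pool, so every p-value measures only the spread between arrays. With 1 array per arm and day there are no replicate arrays. In a model with terms for arm and day, differences between arms in their course over days count towards that spread.

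In liver these factors bind the enhancers and promoters of hepatocyte genes and of each other. HNF4A is a nuclear receptor needed for the hepatocyte programme. The FOXA proteins open chromatin as pioneer factors, and C/EBP alpha and C/EBP beta are leucine-zipper factors: in rodent liver regeneration C/EBP alpha is known to restrain division and C/EBP beta to favour it. ONECUT1 (HNF6), PROX1 and NR5A2 (LRH-1) act in hepatobiliary development, and NR5A2 also in bile acid synthesis. RefSeq lists 14 promoter windows for the 9 genes, each from 250 bases before to 50 bases after an annotated start. A total of 5 are printed because the results below turn on these genes: Foxa3 is the gene with a call, Foxa2 and Cebpa are the most alike pair, and the probe sets of Hnf4a, which has several start sites, disagree. Capitals mark matches on either strand to TATAAA, the TATA box, or to ATTGATT, bound by ONECUT factors. The other letters searched were TTGCNNAA for C/EBP, TGTTTAC for FOXA, CAAAGTCCA for HNF4A and CAAGGTCA for NR5A2, and these printed windows hold none of them.
Foxa3 (GRCm38.p6 chr7:19023490-19023789, minus strand): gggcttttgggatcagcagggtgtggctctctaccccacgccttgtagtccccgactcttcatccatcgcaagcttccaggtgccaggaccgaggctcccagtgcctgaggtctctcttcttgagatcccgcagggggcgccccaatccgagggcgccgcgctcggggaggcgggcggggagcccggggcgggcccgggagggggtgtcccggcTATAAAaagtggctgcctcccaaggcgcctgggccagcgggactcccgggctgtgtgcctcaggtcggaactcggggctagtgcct
Foxa2 (GRCm38.p6 chr2:148046920-148047219, minus strand): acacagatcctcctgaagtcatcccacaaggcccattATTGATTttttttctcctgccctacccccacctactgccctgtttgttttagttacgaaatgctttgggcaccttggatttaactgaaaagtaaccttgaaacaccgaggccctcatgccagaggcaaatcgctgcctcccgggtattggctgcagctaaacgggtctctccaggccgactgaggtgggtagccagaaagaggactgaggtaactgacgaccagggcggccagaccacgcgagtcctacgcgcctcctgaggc
Cebpa (GRCm38.p6 chr7:35119043-35119342, plus strand): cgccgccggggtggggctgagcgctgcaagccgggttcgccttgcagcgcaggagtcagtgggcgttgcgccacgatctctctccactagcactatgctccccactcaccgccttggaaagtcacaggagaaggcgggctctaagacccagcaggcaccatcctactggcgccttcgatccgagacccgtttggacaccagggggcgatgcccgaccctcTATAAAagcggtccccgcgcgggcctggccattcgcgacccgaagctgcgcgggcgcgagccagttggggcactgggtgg
Hnf4a (GRCm38.p6 chr2:163506607-163506906, plus strand): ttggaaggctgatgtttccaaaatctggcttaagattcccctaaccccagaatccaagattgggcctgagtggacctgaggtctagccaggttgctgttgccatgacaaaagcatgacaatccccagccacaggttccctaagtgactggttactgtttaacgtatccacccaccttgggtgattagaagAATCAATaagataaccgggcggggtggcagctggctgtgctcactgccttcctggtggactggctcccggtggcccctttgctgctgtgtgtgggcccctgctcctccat
Hnf4a (GRCm38.p6 chr2:163546905-163547204, plus strand): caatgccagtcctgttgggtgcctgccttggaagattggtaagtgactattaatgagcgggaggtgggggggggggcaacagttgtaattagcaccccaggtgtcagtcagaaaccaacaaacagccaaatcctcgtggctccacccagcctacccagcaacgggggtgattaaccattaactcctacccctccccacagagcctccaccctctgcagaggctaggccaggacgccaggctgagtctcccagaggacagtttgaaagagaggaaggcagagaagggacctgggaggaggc
TATAAA begins 36 bases before the Foxa3 start, written as position -36, and at -30 in Cebpa. It occurs in 6 of the 14 member windows and in 13.6% of all 32851 RefSeq windows of this length. The remaining member matches lie at -34 in Prox1, -208 in another Foxa2 window and -181 in Nr5a2, all on the other strand. In Cebpb the match lies at 22, after the start. ATTGATT lies at -213 in this Foxa2 window and, on the other strand, at -60 in the upstream Hnf4a window. It occurs in 2 of the 14 windows, against 2.855% of all. TGTTTAC and TTGCNNAA each occur in 1 of the 14 windows, in Foxa1 and Nr5a2, against 3.65% and 10.8% of all, while CAAAGTCCA (0.475% of all) and CAAGGTCA (1.56%) occur in none. The GC content of the 5 printed windows ran between 54.0% and 69.0%, beside a median of 52.7% over all windows. These are descriptions of the letters, and the arrays do not tell which start site was used.

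Values are MAS5 signals, deposited linear intensities whose trimmed mean is 500 on every array. The array medians fell into a pair of separate ranges, which the labels do not explain. In the low set were 6 arrays with medians of 156.4 to 188.7, those of MET_KO and MET_FLOX at days 0, 2 and 7. The high set was made up of the 10 others (244 to 265), all canertinib arrays and all arrays of day 14. Drug and array set therefore cannot be told apart before day 14, and each comparison was also fitted in a model that adds the set. In that model the drug difference averaged over the genotypes equals the difference among the 4 arrays of day 14. It is therefore not a check separate from the day 14 values. The ratio of the 3′ to the 5′ control probe set of Gapdh, a sign of RNA quality, was 0.95 to 2.24 with canertinib and 0.765 to 0.869 without it. The summed signal of 7 measured hepatocyte markers was 298693 to 580986 with canertinib and 143301 to 388781 without it, so liver is borne out by its markers in every array. The sum of 7 lymphocyte markers that passed the filter (of 10 listed) was 3774 to 5433 with canertinib and 1504 to 4512 without it, and that of 4 fetal hepatocyte markers (of 5 listed) 1326 to 1896 with canertinib and 697.6 to 1710 without it. Both sums separated the array sets, at 3774 to 5433 in the high set and 1504 to 2219 in the low set for lymphocytes, and at 1326 to 1896 in the high set and 697.6 to 1134 in the low set for fetal hepatocytes. With canertinib 6 of 7 hepatocyte, 5 of 6 neutrophil, 4 of 7 lymphocyte and 1 of 4 fetal hepatocyte markers rose by limma, among them Cd8a by 1.09 ± 0.185 (adjusted p = 0.00248), Ms4a1 by 1.115 ± 0.21 (adjusted p = 0.00339) and Dlk1 by 1.35 ± 0.22 (adjusted p = 0.00211), where 34.6% of all genes were called. None of these markers was at 0 on any array, and none was called when the array set was added to the model. What part these measures have in the results below was not tested. The probe set standing for Met ranged between 982.2 and 1422 in MET_KO_canertinib, 1117.5 and 2014 in MET_FLOX_canertinib, 1011 and 2066 in MET_KO and 1041 and 1962 in MET_FLOX. These ranges overlap. Where the probe set lies relative to exon 16 was not analysed here, so it does not check the labels.

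All 9 factors were above their own array's median signal on 16 of 16 arrays. The closest approach was Prox1, whose lowest array stood at 1.33 times the median of that array. Within a gene, the highest array exceeded the lowest by between 1.90 times for Nr5a2 and 5.73 times for Cebpb. Differences are given as log2 of the signal plus 16, with the standard error of a model holding arm and day as terms, and a gene was called at a limma adjusted p below 0.05 over all 13577 genes. In bulk liver, fewer hepatocytes and less RNA per hepatocyte cannot be told apart.

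**Figure D1:**
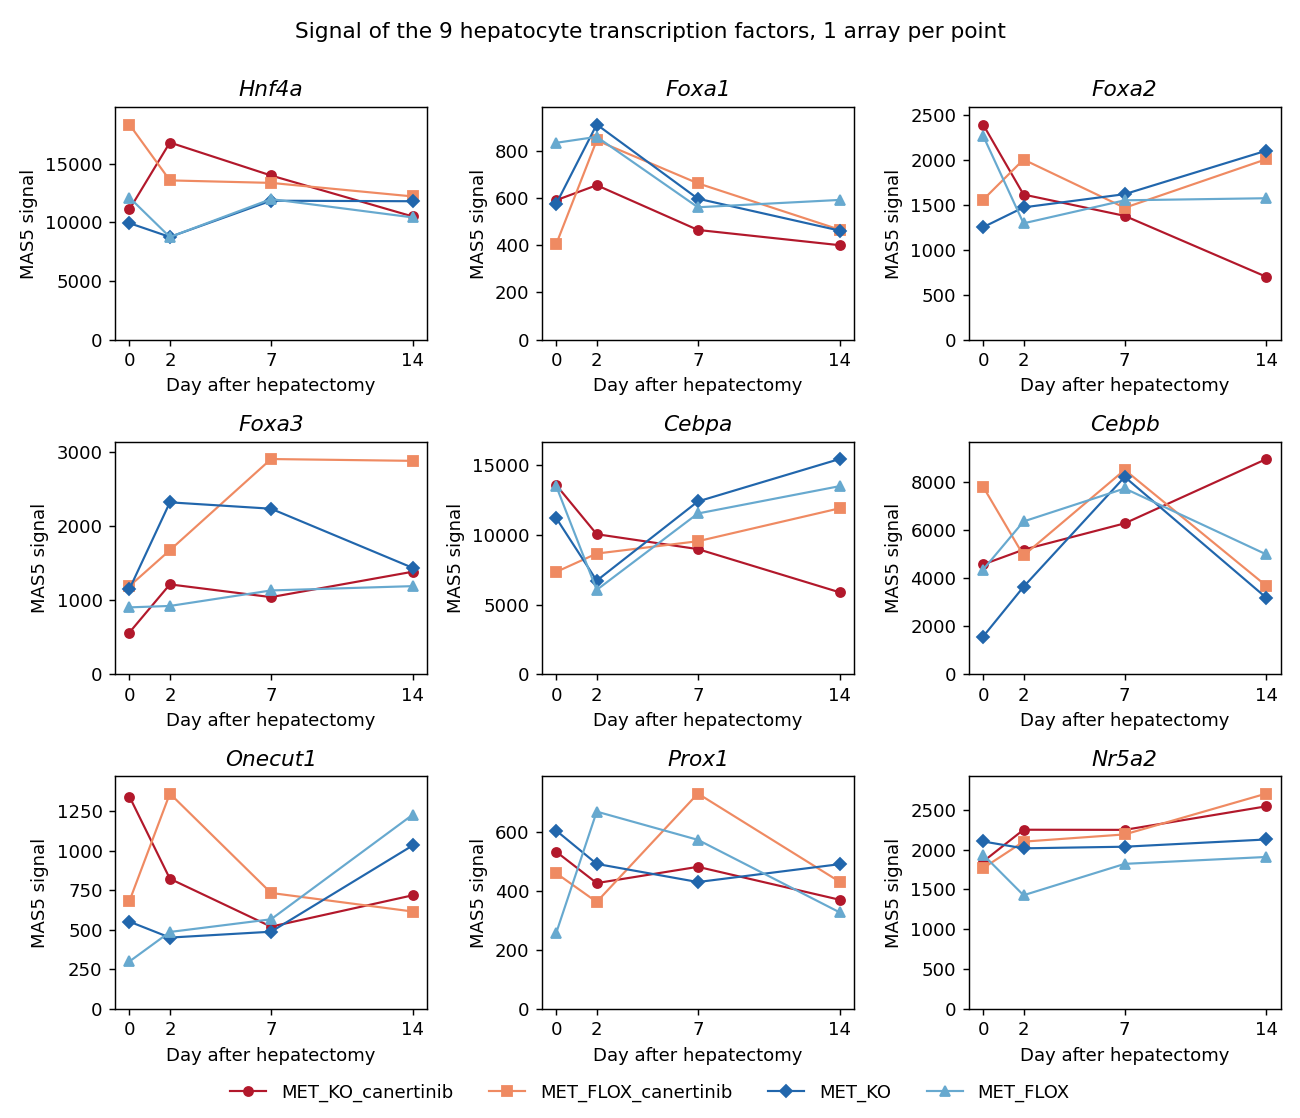
MAS5 signal (linear axis from 0) of each of the 9 genes against the day after hepatectomy, 1 array per point, with a line for each arm. At each day Foxa3 is higher in MET_FLOX_canertinib and MET_KO than in MET_KO_canertinib and MET_FLOX. At day 14, however, MET_KO (1435) is close to MET_KO_canertinib (1382.5). The MET_KO_canertinib array of day 14 has the lowest Foxa1, Foxa2 and Cebpa and the highest Cebpb.

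Foxa3, a forkhead pioneer factor of the adult liver, was the 1 member called in any of the 13 comparisons. The Foxa3 signals were 562, 1212, 1039.7 and 1382.5 in MET_KO_canertinib livers and 1188, 1673, 2903.5 and 2879 in MET_FLOX_canertinib livers at days 0, 2, 7 and 14. Without the drug the values were 1148, 2319, 2233 and 1435 in MET_KO livers and 901.5, 921, 1129.9 and 1188 in MET_FLOX livers. At each of the 4 days the 2 arms with a single block, drug or deletion, had the higher signals. The doubly blocked and the unblocked livers had the lower ones, by little at day 14 (1382.5 against 1435 in MET_KO livers). The share of all genes with such an order was not counted. Foxa3 was higher in MET_FLOX_canertinib than in MET_FLOX livers by 0.96 ± 0.23 (log2 ± SE, 4 arrays each), a 1.95-fold difference with adjusted p = 0.0367 by limma. The difference at days 0, 2, 7 and 14 was 0.39, 0.85, 1.35 and 1.27, positive at 4 of 4 days, although the ranges over days overlap slightly, at 1187.9 and 1188.1. In this comparison 911 of 13577 genes were called, 6.71%, so 1 of 9 members called is near the background. The call was lost when the array set was added to the model, where the difference was 1.47 ± 0.32 (limma adjusted p = 0.138) and 0.0663% of genes were called. That 1.47 is larger than the difference at any of the 4 days. With each array centred on its median the call was lost too, at 0.70 (limma adjusted p = 0.102), where 8.47% were called. Without the day in the model, an alternative chosen after seeing the data, the difference was the same 0.96, with adjusted p = 0.105, and 0.177% of genes were called. The call was also lost on leaving out any of 6 single arrays (MET_FLOX_canertinib day 0, 2 or 7, MET_KO day 7, MET_FLOX day 2 or 7), with differences of 0.855 to 1.12. The highest Foxa3 signals came from MET_FLOX_canertinib at days 7 and 14. These arrays also had the highest Gapdh control ratios, the sign of RNA quality, at 1.52 and 2.24, against 1.35 or less elsewhere. The next highest Foxa3 signals, in MET_KO at days 2 and 7, came with ratios of 0.765 and 0.817. What part RNA quality has in the Foxa3 difference was not tested.

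In MET_KO livers the difference with the drug had the other sign. Foxa3 was -0.77 ± 0.23 in MET_KO_canertinib relative to MET_KO livers, with adjusted p = 0.0515, just short of a call, in a comparison that called 8.23% of genes. The difference at days 0, 2, 7 and 14 was -1.01, -0.93, -1.09 and -0.05, so it was negative at 4 of 4 days and nearly absent at day 14, the day on which all arrays lie in the high set. When the array set was added to the model it was -0.26 ± 0.32 (adjusted p = 0.822, 0.0737% of genes called). With each array centred on its median it was -1.096 with adjusted p = 0.0226, a call among 12.4% of genes. Between the arms with the drug, Foxa3 was -1.01 ± 0.23 in MET_KO_canertinib relative to MET_FLOX_canertinib livers, negative at 4 of 4 days, with adjusted p = 0.588. Between those without it, the difference was 0.73 ± 0.23 in MET_KO relative to MET_FLOX livers, positive at 4 of 4 days, with adjusted p = 1. The genotype by canertinib interaction, the drug difference in MET_KO livers minus that in MET_FLOX livers, was -1.735 ± 0.32 with a 95% interval of -2.43 to -1.04. Its p was 9.03e-05 by limma, the 7th smallest of 13577, and its adjusted p 0.175, so it was not called. The array set leaves this estimate as it is and gives adjusted p = 0.106. The doubly blocked livers did not differ detectably from MET_FLOX livers (-0.04 ± 0.23, 95% interval -0.535 to 0.45).

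**Figure D2:**
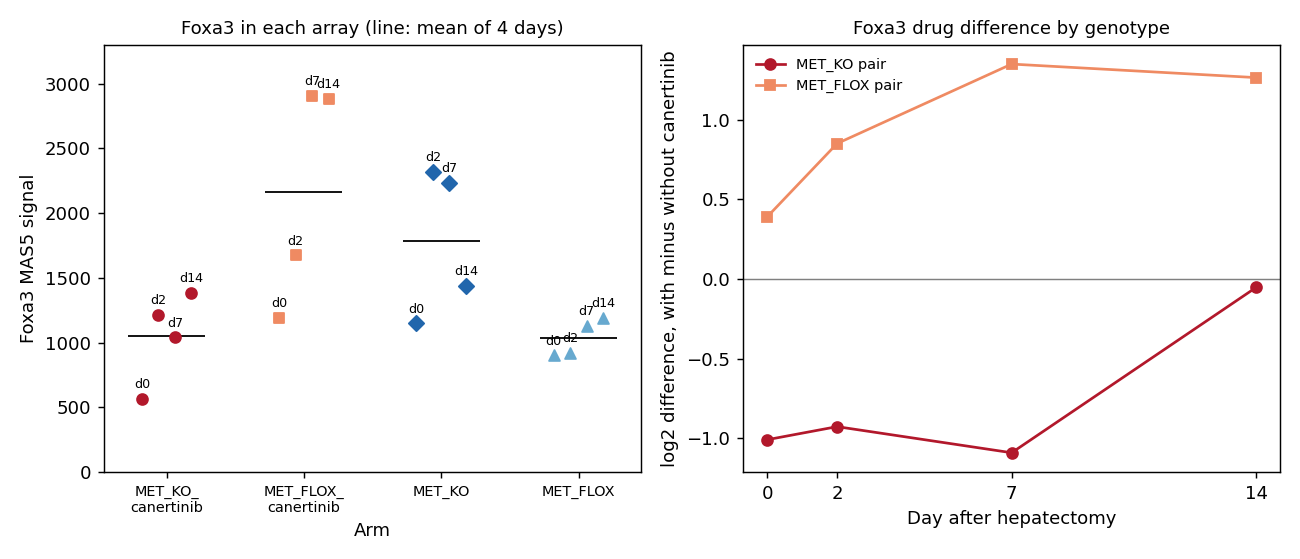
Left, Foxa3 MAS5 signal of each of the 16 arrays by arm, labelled by day, with a line at the mean of 4 days (1049, 2161, 1784 and 1035 from left to right). Right, log2 difference with minus without canertinib at each day, for the MET_KO pair (all 4 below 0) and the MET_FLOX pair (all 4 above 0).

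Foxa1 and Foxa2 code for the other forkhead pioneer factors of liver. Foxa1 signals were 591.5, 655, 465 and 401 in MET_KO_canertinib livers and 405, 845, 663 and 467 in MET_FLOX_canertinib livers at days 0, 2, 7 and 14. In the arms without the drug the values were 576, 913, 598 and 463 in MET_KO livers and 835, 860.3, 561.5 and 593 in MET_FLOX livers. Day 2 was the highest day of Foxa1 in all 4 arms. Its day 2 minus day 0 difference was 0.47 ± 0.20, positive in 4 of 4 arms, with adjusted p = 0.425, and its day 7 minus day 2 difference was -0.505 ± 0.20, negative in 4 of 4 arms, with adjusted p = 0.673. The Foxa1 difference with canertinib was negative at 4 of 4 days and averaged -0.265 ± 0.14, which was not called (adjusted p = 0.157) in a comparison with 34.6% of genes called. The median of all genes was 0.14 in that comparison, and centring each array on its median moved it to -0.15. Under that centring Foxa1 was -0.56 with adjusted p = 0.0118, in a comparison with 34.7% of genes called. Foxa2 gave signals of 2391, 1613, 1376 and 698 in MET_KO_canertinib livers and 1554, 2002, 1466 and 2006 in MET_FLOX_canertinib livers at days 0, 2, 7 and 14. For MET_KO and MET_FLOX, Foxa2 was 1249.7, 1470.0, 1617 and 2100.4 in MET_KO livers and 2267.5, 1293, 1549 and 1572 in MET_FLOX livers. Foxa2 thus spanned 3.43-fold, and both its highest and its lowest array came from MET_KO_canertinib livers, at days 0 and 14. No difference between arms was called for Foxa2, and with canertinib against without it the difference was -0.05 ± 0.21 (95% interval -0.50 to 0.41).

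Cebpa and Cebpb code for the paired C/EBP factors. Cebpa signals were 13571, 10046, 8976 and 5878 in MET_KO_canertinib livers and 7340.1, 8656, 9541 and 11903 in MET_FLOX_canertinib livers at days 0, 2, 7 and 14. Without canertinib the values were 11199.6, 6712, 12397 and 15441 in MET_KO livers and 13494, 6047.5, 11533 and 13492 in MET_FLOX livers. The day 2 minus day 0 difference of Cebpa was -0.43 in MET_KO_canertinib and 0.24 in MET_FLOX_canertinib, against -0.74 in MET_KO and -1.16 in MET_FLOX (log2). Day 2 was the lowest day of Cebpa in both arms without canertinib and in neither arm with it. Averaged over the arms it was -0.52 ± 0.29, with adjusted p = 0.573. The day 2 response, day 2 minus the mean of the other days, was 1.25 ± 0.62 higher in MET_KO_canertinib than in MET_FLOX livers with adjusted p = 0.946, so the difference between these courses was not called. Cebpb signals were 4566, 5181, 6277 and 8953.5 in MET_KO_canertinib livers and 7805, 4940.2, 8502 and 3675 in MET_FLOX_canertinib livers at days 0, 2, 7 and 14. For the arms without the drug the values were 1564, 3637, 8209.7 and 3178 in MET_KO livers and 4349, 6356, 7729 and 4984 in MET_FLOX livers. Day 7 was the highest day of Cebpb in 3 arms, while MET_KO_canertinib peaked at day 14. The day 7 minus day 0 difference of Cebpb was 0.95 ± 0.34, positive in 4 of 4 arms, with adjusted p = 0.911. It was 0.61 ± 0.32 without the MET_KO array of day 0. Its 2 probe sets moved together, with a Pearson r of 0.888 over the 16 arrays, which share their RNA and scaling.

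The MET_KO_canertinib array of day 14 stood at the edge of the 16 for 4 of the 9 genes. It held the lowest Cebpa, Foxa1 and Foxa2 and the highest Cebpb. The share of all genes with their lowest or highest value on this array was not counted. Its median signal, 265, was also the highest of the 16. Relative to the MET_KO array of the same day, Foxa2 differed by -1.57, Cebpa by -1.39 and Cebpb by 1.49 on the log2 scale, with 1 array each and no test. All 4 arrays of day 14 lie in the high set. The summed signal of 6 neutrophil markers that passed the filter (of 10 listed, 8 with a probe set) was 44926 on this array, against 1677 to 12754 on the other 15, and none of the 6 was at 0. By arm that sum ran between 3161 and 44926 in MET_KO_canertinib, 3498 and 6366 in MET_FLOX_canertinib, 1677 and 4755 in MET_KO and 1964.5 and 5325 in MET_FLOX. The summed hepatocyte markers were at 451005 there, inside the range of the canertinib arms, while 4 other sums were also at their highest of the 16 arrays: 5433 for lymphocyte, 9182 for endothelium, 19707 for stellate cell and matrix and 2278 for cholangiocyte and progenitor markers. The next highest arrays were at 5343, 8736, 17448 and 2111. What part these cells' RNA has in the factors' values was not tested. Among listed targets of the factors the same array held the lowest Cps1, Cyp3a11, Cyp7a1, G6pc, Hsd17b13, Mttp, Otc, Proc, Slc10a1 and Ugt2b1. It held the highest Fgb, Igfbp1, Serpina10 and Tat. These targets, too, were not set against the share of all genes. Cyp3a11 read 2818 there, against 21963 or more on the other 15, and Ugt2b1 837, against 6373 or more. Igfbp1 read 67308, against 19325 or less. Whether these targets follow the factors was not tested. Without this array the MET_KO_canertinib minus MET_KO difference was 0.20 ± 0.23 for Foxa2, against -0.185 ± 0.30 with it. For Cebpa it was 0.10 ± 0.24, against -0.25 ± 0.29, and for Cebpb 0.49 ± 0.32, against 0.79 ± 0.34. None of these was called either way.

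Hnf4a and Nr5a2 are the nuclear receptors among the 9. Hnf4a signals were 11096.5, 16799.9, 13990.3 and 10497 in MET_KO_canertinib livers and 18336, 13572, 13359.6 and 12205 in MET_FLOX_canertinib livers at days 0, 2, 7 and 14. Without canertinib the values were 9929.9, 8751, 11840.4 and 11796 in MET_KO livers and 12110.0, 8743, 11976 and 10417 in MET_FLOX livers. All 4 MET_FLOX_canertinib arrays were above all 4 MET_FLOX arrays, but the share of all genes with such a separation was not counted. The difference with canertinib was positive at 4 of 4 days, averaging 0.35 ± 0.15 with adjusted p = 0.0767 by limma. At day 14, within the high set, it was 0.03. Quantile normalization brought it to 0.56 with adjusted p = 0.0118, in a comparison with 23.3% of genes called. The other 3 Hnf4a probe sets ran the other way. Probe set 1427000_at had 6538, 4236, 6595 and 6274 in MET_KO_canertinib and 6699.5, 3805, 6241 and 3985 in MET_FLOX_canertinib livers, against 6587, 7234, 10915 and 4758 in MET_KO and 8466, 10569.9, 9969 and 5497 in MET_FLOX livers. Its difference with canertinib was -0.51 ± 0.16 with adjusted p = 0.0269 in a limma fit over all 22317 probe sets, of which 34.3% were called. Probe sets 1421983_s_at and 1450447_at gave -0.56 ± 0.24 and -0.43 ± 0.22, with adjusted p = 0.0852 and 0.138. Over the 16 arrays the 3 had a Pearson r of -0.37, -0.08 and -0.19 with the first. The direction of Hnf4a with canertinib therefore depends on the probe set. When the array set was added to the model 1427000_at was at -0.03 ± 0.29. At day 14, on which that model's drug estimate rests, 1421983_s_at and 1450447_at stayed lower with canertinib. The former read 2952 in MET_KO_canertinib and 1668 in MET_FLOX_canertinib, against 4858.5 in MET_KO and 2985 in MET_FLOX. In the same order the latter read 1135 and 712, against 1895 and 1235.

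**Figure D3:**
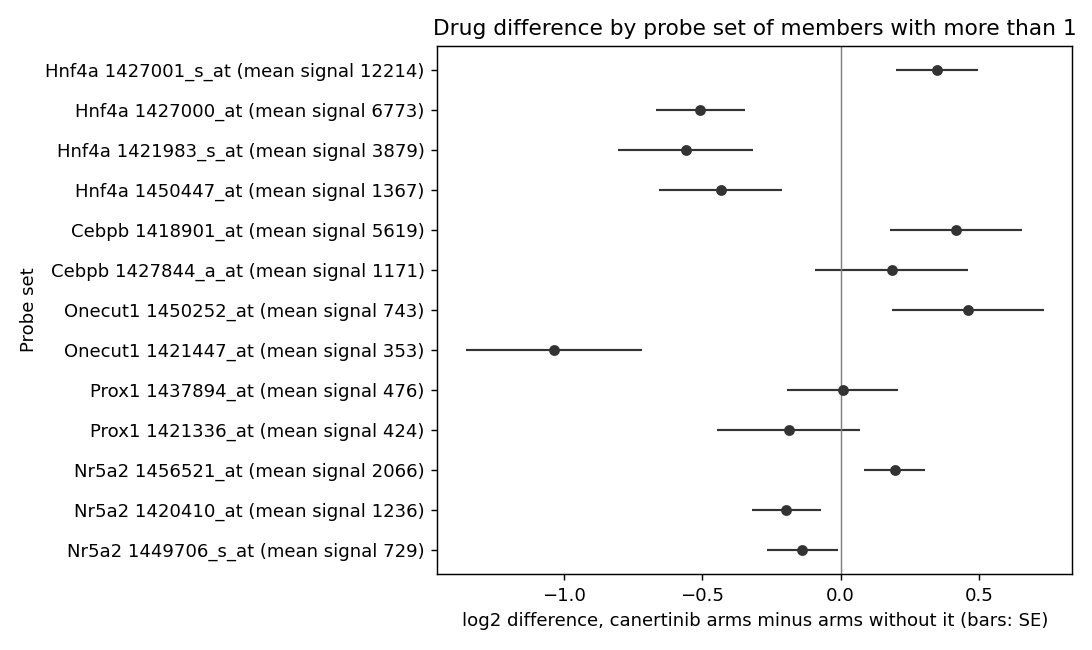
Log2 difference, canertinib arms minus arms without canertinib, with its standard error (bars), for each of the 13 probe sets that passed the filter and belong to a gene with several, in a fit over 22317 probe sets. The first Hnf4a and Onecut1 probe sets lie above 0 and their other probe sets below it, while both Cebpb probe sets lie above 0.

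Nr5a2 signals were 1850.3, 2252, 2250.0 and 2546 in MET_KO_canertinib livers and 1768, 2102, 2193 and 2706.5 in MET_FLOX_canertinib livers at days 0, 2, 7 and 14. Without the drug the values were 2104, 2017.5, 2038 and 2129 in MET_KO livers and 1938, 1427.5, 1822 and 1909 in MET_FLOX livers. Nr5a2 was the steadiest of the 9 over the arrays, and within MET_KO it varied by 1.06-fold. It was higher at 4 of 4 days in MET_KO than in MET_FLOX livers by 0.23 ± 0.15, in a comparison with no gene called by limma. The ranges of these arms did not overlap, but the share of all genes with such a separation was not counted. In MET_KO_canertinib relative to MET_FLOX livers it was 0.325 ± 0.15 with adjusted p = 0.176, and with canertinib against without it 0.195 ± 0.11 (adjusted p = 0.162). After quantile normalization the comparison of canertinib arms with the others gave 0.36 with adjusted p = 0.0251. Probe sets 1420410_at and 1449706_s_at gave -0.20 ± 0.12 and -0.14 ± 0.13 with canertinib. The sign of the drug difference thus differs between probe sets here too, and neither was called. By genotype, 1420410_at read 1616, 1424, 1559 and 1526 in MET_KO livers. In MET_FLOX livers it read 992.5, 1073, 1419 and 992, lower at 4 of 4 days. By contrast, 1449706_s_at was higher in MET_KO livers at days 0 and 14 and lower at days 2 and 7.

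Onecut1 and Prox1 are homeodomain factors of hepatobiliary development. Onecut1 signals were 1343, 822.5, 519 and 718 in MET_KO_canertinib livers and 681, 1361.5, 732.5 and 615 in MET_FLOX_canertinib livers at days 0, 2, 7 and 14. Without the drug the values were 551, 450.1, 487 and 1033 in MET_KO livers and 299, 486, 566 and 1227.5 in MET_FLOX livers. The 6 arrays of the low set held 298.8 to 565.9 and the 10 of the high set 519.2 to 1362, and the 2 arrays without canertinib in the high set, those of day 14, were above all 6 of the low set. Its difference with canertinib was 1.204, 1.15, 0.23 and -0.75 at days 0, 2, 7 and 14, averaging 0.46 ± 0.275 (limma adjusted p = 0.202). When the array set was added to the model it was -0.75 ± 0.42, which is the day 14 value again. The second probe set, 1421447_at, was above the array median on 12 of 16 arrays. It gave -1.04 ± 0.32 with canertinib (adjusted p = 0.0229), the opposite sign, and -2.36 ± 0.50 with adjusted p = 0.0583 in the model with the set. Its lowest array, MET_FLOX_canertinib at day 14, read 39.9. Prox1 signals were 531, 425, 480.4 and 369 in MET_KO_canertinib livers and 459, 361.5, 728.5 and 430.2 in MET_FLOX_canertinib livers at days 0, 2, 7 and 14. In the other arms the values were 603, 490.3, 429 and 489 in MET_KO livers and 257, 667, 572 and 326.5 in MET_FLOX livers. Prox1 showed no order among arms in this first probe set. It was 0.01 ± 0.20 with canertinib (95% interval -0.42 to 0.44). In the knockout arms relative to the flox arms it was 0.07 ± 0.20 (adjusted p = 1). The second Prox1 probe set, 1421336_at, was above the array median on 14 of 16 arrays and gave -0.19 with canertinib. Its Pearson r with the first was 0.17.

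Across the 9, no member was called with canertinib against without it, in a comparison where 34.6% of all genes were called (by limma 0 of 9, while 1 of 9, Hnf4a, had an unadjusted p below 0.05). The members' median difference was 0.10, against 0.14 over all genes, and 8 of 9 had a 95% interval within 2-fold, Onecut1 being the exception. When the array set was added to the model 0.11% of genes and no member were called, and only 4 of 9 intervals stayed within 2-fold. In MET_KO_canertinib relative to MET_FLOX livers, the double block against neither, 2.88% of genes and no member were called. Differences there ran between -0.42 for Foxa1 and 0.49 for Onecut1, and 8 of 9 intervals lay within 2-fold, again without Onecut1. When the array set was added to the model 2 of 9 did, with 0.0368% of genes called. The array number thus leaves larger differences possible for most members in the model with the set.

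**Figure D4:**
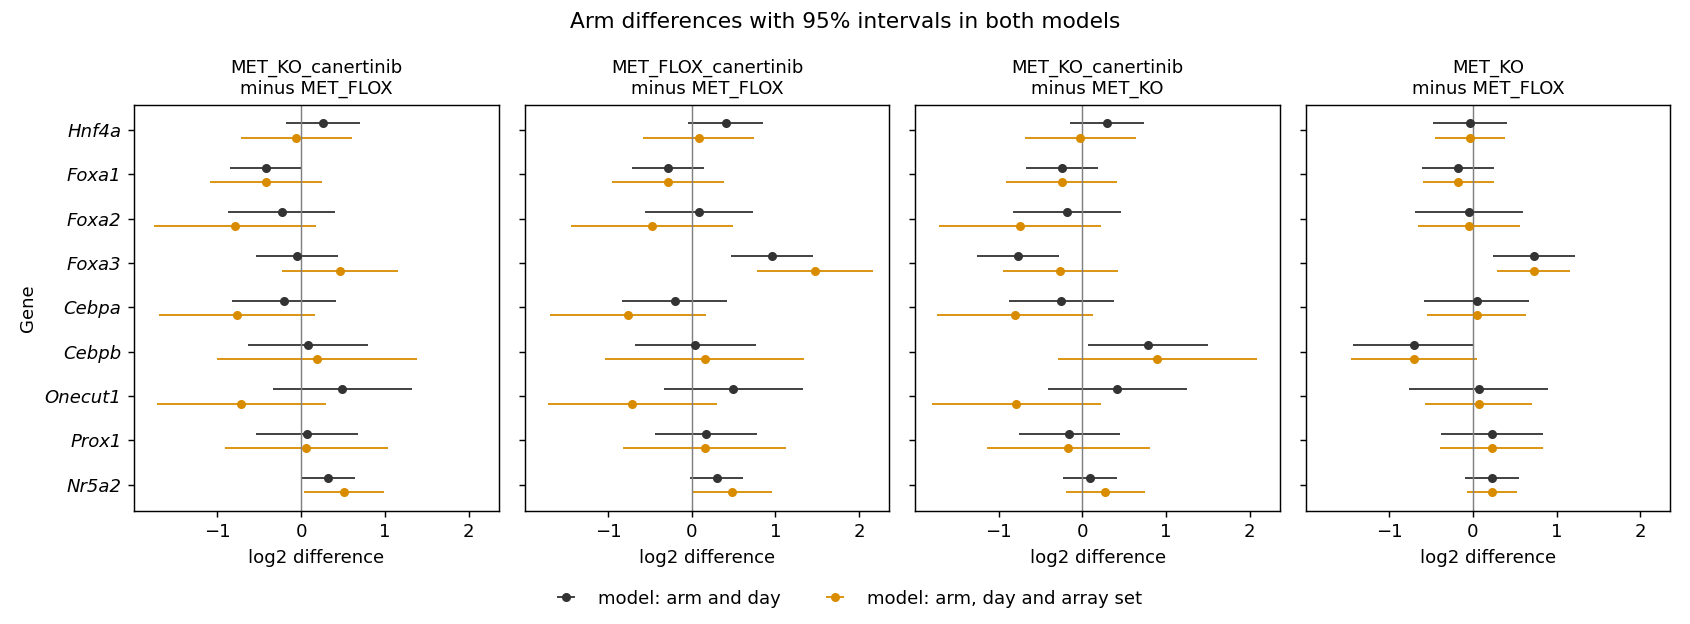
Log2 difference (points) and 95% interval (bars) of the 9 genes in 4 comparisons of arms, from the model with arm and day (dark) and the model that adds the array set (orange). Foxa3 lies above 0 in MET_FLOX_canertinib minus MET_FLOX in both models, at 0.96 and 1.47. The second value is larger than the difference at any single day (0.39 to 1.35).

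Deletion of Met alone called no gene. For MET_KO relative to MET_FLOX livers 0% of genes were called by limma, with 350 at an unadjusted p below 0.05, 1 of them a member, Foxa3. Cebpb was -0.71 ± 0.34 there, lower at 3 of 4 days, with a signal of 1564 in MET_KO and 4349 in MET_FLOX livers at day 0. Without that MET_KO array it was -0.37 ± 0.32 (adjusted p = 1). The knockout arms together relative to the flox arms also had 0% called (322 genes at an unadjusted p below 0.05, no member). All 9 intervals lay within 2-fold in that comparison. Between the canertinib arms 0.00737% of genes were called, and the interaction called 0.0147%, with or without the array set, none of them a member.

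By day, no member was called. Day 2 against day 0 called 0.383% of genes (0.449% with the array set), day 7 against day 0 called 0.00737%, day 14 against day 0 called 0.081% (0.199% with the set), and day 7 against day 2 called 0% with 896 genes at an unadjusted p below 0.05. The day 2 response compared between MET_KO_canertinib and MET_FLOX called 0%, with 677 genes at an unadjusted p below 0.05 and no member. Relative to day 0, Foxa3 had the smallest adjusted p of the 9 at each day. It was 0.65 ± 0.23, 0.85 ± 0.23 and 0.81 ± 0.23 at days 2, 7 and 14, positive in 4 of 4 arms each time, with adjusted p = 0.31, 0.619 and 0.155. In the canertinib arms alone, whose 8 arrays lie in the high set, its day 14 difference was 1.27 ± 0.27 with adjusted p = 0.345. For scale, Birc5 and Cdk1, markers of dividing cells, were higher at day 2 by 4.67 ± 0.56 and 4.05 ± 0.47, averaged over the arms. Both had a limma adjusted p of 0.00435. The arms were not alike in this. The summed signal of 8 such markers at day 2 was 4290 in MET_KO_canertinib. It was 19081 in MET_FLOX_canertinib, 32846 in MET_KO and 24404 in MET_FLOX.

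Likeness among the genes is given as Pearson r of log2 values over the 16 arrays, which share scaling and the array sets, and as a description. Foxa2 and Cebpa were the most alike pair of the 9, at 0.69, and also 0.69 after each array set's mean was subtracted. Foxa3 and Nr5a2 followed at 0.52 (0.565 after subtraction), with Nr5a2 read from its first probe set. That probe set had an r of 0.01 and -0.32 with 1420410_at and 1449706_s_at. Foxa3 had almost no relation to its relatives Foxa1 (0.02) and Foxa2 (-0.11). Cebpa and Cebpb ran at -0.37. Among the 13576 other genes, Cebpb was nearest to Orm2, an acute phase protein gene (0.867), Lrrc75a (0.825) and Serpina10 (0.822), and after subtraction to Tspan8 (0.867), Orm2 (0.862) and Saa1 (0.859), another acute phase gene. By its first probe set, Prox1 was nearest to Zbtb20 (0.869 both ways), a zinc finger factor of liver. That probe set had an r of only 0.17 with the second, 1421336_at. Foxa2 was nearest to Rps27l (0.906) and Vkorc1 (0.885), Cebpa to Akap8l (0.869) and Pbld1 (0.858), and Foxa3 to 2410006H16Rik (0.805), Atp6v0b (0.774) and A2ml1 (0.766).

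Other liver transcription factors were read from a list of 35, of which 32 were tested. With canertinib 2 rose and 4 fell of these 32, a smaller share than the 34.6% of all genes called, and their median was -0.03, against 0.14 over all genes. Tbx3, a T-box factor of hepatoblasts, rose by 0.49 ± 0.15 (adjusted p = 0.0244) and Ppargc1a, a coactivator of gluconeogenesis, by 0.52 ± 0.17 (adjusted p = 0.0337). Nr3c1, the glucocorticoid receptor, fell by 0.43 ± 0.13 (adjusted p = 0.0196), and Nfib, a nuclear factor I protein, fell by 0.48 ± 0.15 (adjusted p = 0.0297). None of the 32 was called in the other 12 comparisons or in any comparison when the array set was added to the model.

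Known targets of the 9 factors were read from a list of 40, of which 38 were tested. With canertinib 10 rose and 5 fell of these 38, a share near the 34.6% of all genes called, with a median of 0.18, against 0.14 over all genes. Alb, serum albumin, rose by 1.23 ± 0.23 (adjusted p = 0.00358), and Hpx, hemopexin, by 1.11 ± 0.22 (adjusted p = 0.00403). Mttp, which loads lipid onto apolipoprotein B, fell by 0.55 ± 0.11 (adjusted p = 0.00456), and Slc10a1, the bile acid uptake transporter, fell by 0.87 ± 0.18 (adjusted p = 0.00459). In MET_FLOX_canertinib relative to MET_FLOX livers 3 rose and 1 fell, where 6.71% of all genes were called, with Apoa1 at 1.39 ± 0.30 (adjusted p = 0.0281) and Pck1 at -0.755 ± 0.20 (adjusted p = 0.0418). In MET_KO_canertinib relative to MET_KO livers 1 rose and 3 fell, where 8.23% of all genes were called, with Alb at 1.12 ± 0.33 (adjusted p = 0.0496) and Hsd17b13 at -1.32 ± 0.27 (adjusted p = 0.0218). At day 2 relative to day 0, Pklr, the liver pyruvate kinase, fell by 1.18 ± 0.24 (adjusted p = 0.0499). When the array set was added to the model Slc10a1 was the 1 target called with canertinib, at -1.69 ± 0.26 (limma adjusted p = 0.021), and none was called higher. That estimate is the difference among the 4 arrays of day 14.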

How the data were processed

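Per the submitters' processing notes the deposited values come from MAS5 (version not given in the sources). They are signal intensity on a linear scale, 1 deposited column per array, and the labels' protocols name 6 ug of total RNA. The trimmed mean of 500 (2% off each end) was read from the values. Of 45101 probe sets, 64 controls, 932 with several genes and 9160 with none in the platform annotation were left out. Probe sets above their array's median on at least 4 of 16 arrays were kept, which left 22317, and 1 probe set per gene gave 13577 genes. Symbols are those of the annotation. The log2 of the signal plus 16 was fitted with limma 3.58.1 in R 4.3.3 (additive arm and day effects, trended empirical Bayes variances, 9 residual degrees of freedom, two-sided), with Benjamini-Hochberg adjustment. The fit was tested on simulated data. All arm comparisons, the day comparisons and the interaction come from this 1 fit, and the day 2 response from one with 6 residual degrees of freedom. The array set, parted at a median of 216.35, leaves 8. Arm comparisons share arms, so their values are not independent of each other. The 9 genes, the gene lists and the tests were chosen with earlier results of these data known. All 9 genes were named. From each list the 2 called genes with the smallest p in each direction could be named, and the genes most like a member by Pearson r. Targets lowest or highest on the MET_KO_canertinib array of day 14 were named after seeing the data. Array number limits the precision. Alternatives were the pseudocount, the filter, 2 scalings, the array set, the probe set rule, no trend and each array left out. The fit of every probe set, the values of day 14 alone, the fit of the canertinib arms alone and that without the day were added after seeing the data.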

Additional observations from a re-analysis of the deposited data

Results flagged for a closer look

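Foxa3 drew attention because the canertinib difference had opposite signs in the genotypes. It was negative at 4 of 4 days in MET_KO livers and positive at 4 of 4 days in MET_FLOX livers. The share of all genes with these signs was not counted. The test of that difference, the limma interaction term, gave -1.735 ± 0.32 (log2 ± SE) with adjusted p = 0.175 over all genes, and the adjusted p ran between 0.076 and 0.667 over the alternatives. The result was not called. No member had an array far from the other 3 of its arm in 36 groups of 4, where chance alone gives about 1 in 20.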

How the results depend on the processing

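With canertinib against without it, the number of members called, 0, became 1 with each array centred on its median (Foxa1), 2 after quantile normalization (Hnf4a and Nr5a2) and 2 with the probe set of second highest mean, where Hnf4a (-0.507) and Onecut1 (-1.036) reversed. It ran between 0 and 1 with single arrays left out (Hnf4a, without MET_KO_canertinib or MET_KO at day 14). In MET_FLOX_canertinib minus MET_FLOX the count of 1 became 0 after centring and when the array set was added to the model, and 0 to 1 with single arrays left out, where Foxa3 ran between 0.84 and 1.14. In MET_KO_canertinib minus MET_KO the count of 0 became 1 (Foxa3) after centring and with the mean of all probe sets of a gene, and 0 to 1 with single arrays left out (without day 14 of MET_KO_canertinib, MET_FLOX_canertinib or MET_KO). The cause was not tested. In the other 10 comparisons no member was called under any alternative run. Of all genes called with canertinib 69.3% were higher, against 28.6% after centring, 64% after quantile normalization and 26.7% of 15 with the array set, where the count of called genes dropped from 4699. The arms are paired by day, which is a block in the model. Without that block, chosen after seeing the data, the count in MET_FLOX_canertinib minus MET_FLOX became 0 (Foxa3 0.964, adjusted p = 0.105), with 24 of all genes called in place of 911, and 0 members were called in the other 7 comparisons of arms. Signal over the array median was smallest for Prox1, Foxa1 and Onecut1, at 1.33, 1.51 and 1.58 times in their lowest arrays.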
